A study of Mus musculus with 4 samples.

Results

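Receptors for circulating metabolic hormones were followed over the cell types of mouse liver. The set held 9 receptor genes of the 32285 genes listed in the files: the leptin receptor Lepr, the glucagon-like peptide 1 receptor Glp1r, the beta-adrenergic receptor Adrb1, the insulin receptor Insr, the insulin-like growth factor receptor Igf1r, the adiponectin receptors Adipor1 and Adipor2, the growth hormone receptor Ghr and the glucocorticoid receptor Nr3c1. They were matched by symbol, and they were chosen with their share of positive cells and their level per library and cell type in view. Lepr in Timd4 Kupffer cells, Glp1r in CD8 T cells and Adrb1 in macrophages were part of that choice. Levels and fold changes of the 9 receptors are therefore given as descriptions without p-values. How many of them passed the fit across all genes is counted once, with nothing read from it, and p-values are given for the genes that act around them.

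Livers of male C57BL/6J mice, bought at the same age, were dissociated and profiled by single-cell RNA sequencing from the 3' end of transcripts. The normal chow diet group (NCD) was kept on chow and given water by gavage, and had 1 library. The high-fat diet group (HFD) was fed a high-fat diet and given water by gavage, and had 2 libraries. The JQF group was fed the same high-fat diet and then given Jiangtang Qingre Formula, a mixture of several medicinal herbs, by mouth, and had 1 library. The diet and the formula were thus compared through a single NCD and a single JQF library, with liver samples counted as 1, 2 and 1 in the protocol. P-values rest on the spread between the HFD libraries only, and the lone NCD and JQF libraries are assumed to vary like them.

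After cells under 500 genes or over 20% mitochondrial UMIs had been left out, 31290 of 34746 called barcodes remained, 5975 of them from NCD, 8540 from JQF, 6516 from HFD replicate 1 and 10259 from HFD replicate 2, and 28982 of them could be assigned to a type by marker genes. The kept cells of a library held 67615639 to 108062769 UMIs, where a UMI stands for a distinct captured transcript. The sample labels call the material immune cells, which does not describe it, since endothelial, hepatocyte, epithelial and stellate cells were found as well. Over all libraries, 99.4% of endothelial cells held Ptprb and 96.0% held Clec4g, both among the markers that assigned them. Endothelial cells made up 64.3% of the kept cells in NCD, 1.64% and 11.9% in the HFD libraries and 7.14% in JQF. NCD stood apart in other ways too. Its cells had a median of 13081 UMIs against 7608 to 8884 in the other libraries, and ribosomal protein genes took 11.7% of the UMIs of its CD8 T cells against 17.1% to 20.7%. Genes differed by length as well: in CD8 T cells the median log2 fold change of HFD against NCD was 0.44 for genes with a genomic span up to 9.15 kb and -0.26 for those over 53.2 kb, against -0.05 and 0.07 for JQF against HFD. The receptor genes span 10.9 kb (Adrb1) to 280.8 kb (Igf1r), and the part of these differences in the levels below was not tested. Pairs of libraries shared 12 to 27 cell barcodes, at most 0.316% of the smaller library.

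These receptors tell liver cells about the energy state of the body. Leptin from fat cells signals through JAK2 and STAT3 with SOCS3 as feedback, insulin and IGF-1 act through receptor tyrosine kinases and IRS proteins, and growth hormone acts through JAK2 and STAT5 and makes hepatocytes secrete IGF-1. GLP-1 and catecholamines raise cyclic AMP through receptors coupled to G proteins, adiponectin receptors are linked to AMP-activated kinase and ceramide breakdown, and the glucocorticoid receptor is a transcription factor that turns on feedback genes such as Fkbp5.

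Lepr, Glp1r and Adrb1 were near 0 in most cell types and high in a few, so their promoters are shown. Each window runs from 250 bases before to 50 bases after a start site in RefSeq (GRCm38.p6), is written 5′ to 3′ along the gene, and carries in capitals the matches to a CCAAT box or a GC box (GGGCGG) on either strand. The windows lie at chr4:101717157-101717456 for Lepr, chr17:30901617-30901916 for Glp1r and chr19:56721867-56722166 for Adrb1, all on the plus strand. In GENCODE M21 on the same build Lepr spans bases 101717404 to 101815352 of chromosome 4, Glp1r 30901817 to 30940791 of chromosome 17 and Adrb1 56722199 to 56733113 of chromosome 19.
Lepr: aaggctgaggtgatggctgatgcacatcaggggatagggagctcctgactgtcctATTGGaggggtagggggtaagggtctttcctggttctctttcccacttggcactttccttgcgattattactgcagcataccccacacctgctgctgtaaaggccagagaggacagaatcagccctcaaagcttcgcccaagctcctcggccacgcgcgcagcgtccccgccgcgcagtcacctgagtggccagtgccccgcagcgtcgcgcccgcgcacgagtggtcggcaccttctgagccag
Glp1r: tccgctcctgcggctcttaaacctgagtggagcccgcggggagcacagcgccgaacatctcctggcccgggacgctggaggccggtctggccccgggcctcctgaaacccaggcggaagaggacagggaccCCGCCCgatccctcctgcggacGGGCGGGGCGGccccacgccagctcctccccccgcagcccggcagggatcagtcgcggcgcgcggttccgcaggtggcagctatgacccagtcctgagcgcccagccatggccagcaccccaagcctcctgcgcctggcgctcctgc
Adrb1: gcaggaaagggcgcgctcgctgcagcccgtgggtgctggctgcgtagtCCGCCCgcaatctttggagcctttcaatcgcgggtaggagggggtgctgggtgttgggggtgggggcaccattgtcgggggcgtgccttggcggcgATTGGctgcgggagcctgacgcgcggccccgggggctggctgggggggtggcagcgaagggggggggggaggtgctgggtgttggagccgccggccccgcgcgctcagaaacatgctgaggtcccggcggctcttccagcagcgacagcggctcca
The Lepr window held 18 CpG dinucleotides, the Glp1r window 29 and the Adrb1 window 28, against a median of 7 over 32851 promoters of this length. The Lepr window had a CCAAT box and no GC box, while a second Lepr start window at chr4:101717656-101717955, not printed, had 13 CpGs, a GC box and no CCAAT box. The Glp1r window had 3 GC boxes, of which a pair overlaps, and the Adrb1 window had a match to each. CCAAT was found in 37.4% of all promoters and GGGCGG in 35.7%. None of the 3 windows held TATAAA (13.6% of all promoters), CACGTG (7.15%) or the cyclic AMP response element TGACGTCA (1.79%). Of the receptors fitted in all 10 types that had an entry, Adipor2 had 41 CpGs, Igf1r 48, and Adipor1 21 and 40 at its start sites.

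The leptin receptor was found on endothelial cells and on resident Kupffer cells. In endothelial cells Lepr was at 72.9 CPM (UMIs of the gene relative to all UMIs of that cell type in that library, in the usual CPM unit) in NCD, 206 and 166 CPM in HFD replicates 1 and 2, and 77.9 CPM in JQF. Both HFD libraries lay above NCD and JQF, whose values were close. The counting intervals of the HFD libraries (177 to 240 and 158 to 174 CPM) were apart from those of NCD (70.9 to 74.9) and JQF (70.6 to 85.8). The intervals of the HFD libraries were also apart from each other. They cover counting error only and do not measure the spread between animals. The fitted log2 fold change was 1.17 (SE 0.25) for HFD against NCD and -1.23 (SE 0.26) for JQF against HFD. HFD replicate 1 rested on 107 endothelial cells, and replicate 2 on 1219.

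The share of endothelial cells with a Lepr UMI did not follow the level at full depth. It was 51.1% in NCD, 57.0% and 51.4% in the HFD libraries and 36.9% in JQF. NCD endothelial cells were the deepest, with a median of 15981 UMIs against 6342 to 8068. For shares at equal depth, cells with at least 2000 UMIs were thinned to 2000 and all shallower cells were left out. The shares were then 13.3% in NCD, 27.5% and 25.8% in the HFD libraries and 13.3% in JQF, with the HFD libraries again above NCD and JQF. In B cells, which serve as the background, 0% to 0.798% of cells had a Lepr UMI at median depths of 4905 to 8030 UMIs.

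**Figure D1:**
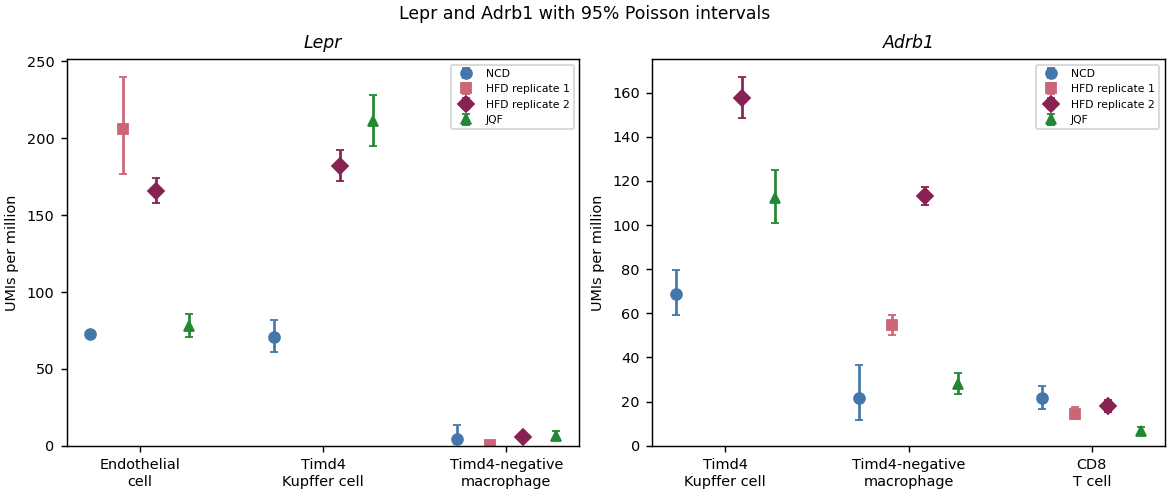
Level of Lepr (left) and Adrb1 (right) in CPM (linear y axis) by cell type (x axis), with 1 point per library and bars for exact 95% Poisson intervals, which cover counting error only; the 8 Timd4 Kupffer cells of HFD replicate 1 are left out. Lepr lies between 71.0 and 211 CPM in Timd4 Kupffer cells and at most at 6.59 CPM in macrophages without Timd4, whereas Adrb1 is found in both, with HFD replicate 2 highest.

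Lepr was found in endothelial cells with and without Vwf, the gene of von Willebrand factor. Cells with a UMI of Vwf had Lepr at 81.5 CPM in NCD, 138 and 175 CPM in HFD and 89.4 CPM in JQF. Cells without Vwf had 72.4 CPM in NCD, 277 and 164 CPM in HFD and 74.9 CPM in JQF. In both subsets the HFD libraries were the higher ones. The sinusoidal gene Clec4g was found in 85.0% to 98.0% of the endothelial cells of a library, so most cells with Vwf in HFD and JQF also held it, and the cells with Clec4g had Lepr at 72.9 CPM in NCD, 198 and 164 CPM in HFD and 76.6 CPM in JQF. Vwf and Clec4g, like the split genes further on, were chosen after their values had been seen.

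Among macrophages Lepr followed Timd4, a marker of long-lived resident Kupffer cells. Macrophages with a Timd4 UMI had Lepr at 71.0 CPM in NCD (137 cells), 182 CPM in HFD replicate 2 (545 cells) and 211 CPM in JQF (213 cells). At 2000 UMIs per cell these levels were 115, 202 and 257 CPM. HFD replicate 1 held only 8 such cells with 0 Lepr UMIs, which gives an upper bound of 31.8 CPM from counting alone. Macrophages without Timd4 had 4.65 CPM in NCD, 0.696 and 5.76 CPM in HFD and 6.59 CPM in JQF. In each library with more than 8 Timd4 Kupffer cells the resident cells were thus far above the other macrophages. The share of cells with a Lepr UMI was 44.5%, 50.5% and 60.1% in the Timd4 Kupffer cells of NCD, HFD replicate 2 and JQF, and 17.8%, 24.9% and 30.1% at 2000 UMIs per cell.

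Other Kupffer markers were checked in these cells, with the cells of all libraries pooled. Clec4f was found in 97.0% of them, Cd5l in 98.8%, Vsig4 in 95.7%, Folr2 in 91.8% and Marco in 54.7%. Of the macrophages without Timd4, 65.0% had Cd5l, 34.4% Vsig4, 40.5% Folr2, 5.29% Marco and 43.8% Clec4f, and Lepr was also split by that gene. With Clec4f, Lepr was at 8.72 CPM in HFD replicate 2 and 36.2 CPM in JQF, and without it at 2.11 and 1.01 CPM. HFD replicate 1 was at 0.355 and 0.828 CPM on 1 and 6 UMIs, too few to show an order. NCD was at 48.5 CPM on 3 UMIs with Clec4f and at 0 CPM without it. Macrophages as a whole had Lepr at 58.0 CPM in NCD, 0.688 and 40.7 CPM in HFD and 87.7 CPM in JQF. Timd4 Kupffer cells were 137 of the 182 macrophages in NCD, 8 of 750 and 545 of 2774 in HFD and 213 of 542 in JQF, and their part in the level over all macrophages was not tested.

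Lower Lepr levels were seen in a few other cells. Stellate cells had 11.8 CPM in NCD (5 UMIs in 22 cells) and 17.4 CPM in JQF (10 UMIs in 39 cells). Hepatocyte-gated cells of NCD had 16.0 CPM (24 UMIs), and the HFD and JQF hepatocytes were at 0 to 1.89 CPM. RNA in droplets of fewer than 100 UMIs, which stands for free transcripts, held Lepr at 28.6 CPM in NCD, 1.43 and 22.3 CPM in HFD and 13.5 CPM in JQF. The gene whose level was most like that of Lepr over 40 points of library and type was the endothelial cadherin Cdh5, with a Pearson r of 0.93 for log2(CPM + 1), followed by Zfp532, Etv1, Phactr1 and Calml4 at 0.92 to 0.93. Cdh5 was also one of the markers that assigned endothelial cells, so nothing is read from its place. Points of a library share its depth, so these values are a description.

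Among the T cells of the liver, the GLP-1 receptor was found on CD8 T cells. Glp1r was at 107 CPM in NCD, 35.1 and 69.8 CPM in HFD and 8.87 CPM in JQF. The 4 intervals, which cover counting error only, were apart from one another, also within HFD. JQF was the lowest library and NCD the highest, with the HFD libraries between them. The fitted log2 fold change was -1.01 (SE 0.36) for HFD against NCD and -2.48 (SE 0.43) for JQF against HFD. The share of CD8 T cells with a Glp1r UMI was 39.7% in NCD, 18.1% and 29.2% in the HFD libraries and 7.71% in JQF, and 15.1%, 7.58%, 13.2% and 1.62% at 2000 UMIs per cell. The 3 cells with the most UMIs held 3.64% to 9.14% of the Glp1r UMIs of a library, so the signal did not rest on a few cells.

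CD4 T cells had Glp1r at 0 to 1.05 CPM and the T cells with neither coreceptor or both at 0.690 to 9.60 CPM. In B cells 0% to 1.26% of cells had a Glp1r UMI at median depths of 4905 to 8030 UMIs, against 6899 to 11580 in CD8 T cells. CD8 T cells with a UMI of Pdcd1, the gene of the inhibitory receptor PD-1, had Glp1r at 191 CPM in NCD, 64.8 and 98.7 CPM in HFD and 18.3 CPM in JQF. CD8 T cells without Pdcd1 had 19.9 CPM in NCD, 9.60 and 10.1 CPM in HFD and 6.19 CPM in JQF. Glp1r was higher beside Pdcd1 in all 4 libraries, and the order of the libraries was the same in the cells with Pdcd1 as in all CD8 T cells.

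**Figure D2:**
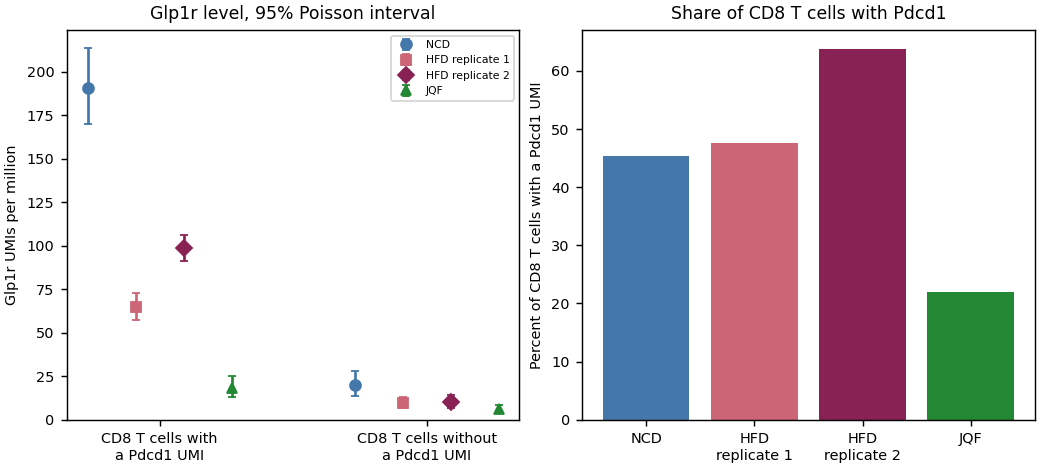
Level of Glp1r in CPM (left, linear y axis, bars are exact 95% Poisson intervals) in CD8 T cells with and without a Pdcd1 UMI, and the percentage of CD8 T cells with a Pdcd1 UMI (right, bars start at 0), for each of the 4 libraries. Glp1r ranges from 18.3 to 191 CPM with Pdcd1 and from 6.19 to 19.9 CPM without it, and JQF has the smallest share of Pdcd1 cells, 22.0%.

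Pdcd1 was found in 45.3% of the CD8 T cells of NCD, 47.6% and 63.8% of those of HFD and 22.0% of those of JQF. The share and the level within the Pdcd1 cells were both lowest in JQF. The cytotoxic memory gene Gzmk also split the cells, with Glp1r at 170, 49.1, 86.1 and 12.7 CPM in cells with Gzmk and 42.1, 10.2, 26.2 and 7.34 CPM in cells without it, in the order NCD, HFD replicate 1, HFD replicate 2 and JQF. The intervals overlapped in JQF. The genes most like Glp1r over the 40 points were Rnf165 (r 0.86), Gm44175 (0.85), Gm44174 (0.77), Cd8b1 (0.77) and the enkephalin gene Penk (0.77). Cd8b1 was used to assign the CD8 T cells, so nothing is read from its place.

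A further Glp1r signal was seen in endothelial cells with Vwf. These had 4.97 CPM in NCD, 19.0 and 21.5 CPM in HFD and 16.3 CPM in JQF, and 8.93%, 16.7%, 18.6% and 16.2% of them had a Glp1r UMI. Endothelial cells without Vwf had at most 1.10 CPM, and at most 0.768% of them had a UMI. Glp1r was thus at a higher level beside Vwf in each library. In NCD, however, 56 of the 76 Glp1r UMIs of endothelial cells lay in the 3671 cells without Vwf. The level over all endothelial cells ran from 1.11 CPM in NCD to 9.60 CPM in HFD replicate 1. These libraries had the smallest and the largest share of Vwf cells (4.38% and 39.25%), and the part of that share in the level was not tested. The fitted log2 fold change over all endothelial cells was 2.43 (SE 0.82) for HFD against NCD, with 8 UMIs in HFD replicate 1.

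Adrb1, which binds adrenaline and noradrenaline, was a macrophage gene in these livers. It was at 59.5 CPM in NCD, 54.8 and 122 CPM in HFD and 61.4 CPM in JQF. HFD replicate 2 was the high library, whereas HFD replicate 1 lay close to NCD and JQF, so the replicates differed more than the groups. The fitted log2 fold change was 0.71 (SE 0.55) for HFD against NCD and -0.54 (SE 0.52) for JQF against HFD, and without HFD replicate 2 the plain log2 ratio of HFD to NCD turned from 0.57 to -0.12.

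Unlike Lepr, Adrb1 was carried by macrophages with and without Timd4. Timd4 Kupffer cells had 68.7 CPM in NCD, 158 CPM in HFD replicate 2 and 112 CPM in JQF, beside 8 UMIs in the 8 cells of HFD replicate 1. Macrophages without Timd4 had 21.7 CPM in NCD, 54.7 and 113 CPM in HFD and 27.9 CPM in JQF. Here both HFD libraries were above NCD and JQF, with NCD resting on 45 cells. Clec4f split these cells further, with Adrb1 at 48.5, 85.3, 147 and 48.2 CPM in cells with Clec4f and at 18.9, 42.8, 71.1 and 24.0 CPM in cells without it, in the order NCD, HFD replicate 1, HFD replicate 2 and JQF. The NCD value with Clec4f rested on 3 UMIs in 13 cells, and the NCD intervals overlapped (9.99 to 142 and 9.42 to 33.8 CPM).

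CD8 T cells had a lower Adrb1 level that did not overlap that of macrophages, at 21.4 CPM in NCD, 14.6 and 17.8 CPM in HFD and 6.68 CPM in JQF. It was 20.7 against 9.39 CPM and 23.2 against 6.63 CPM in CD8 T cells with and without Pdcd1 in HFD, with intervals apart. In NCD (24.8 against 17.97 CPM) and JQF (9.89 against 5.77 CPM) the intervals overlapped. Dendritic cells held 0 to 1.71 CPM and 0% to 1.26% of B cells had an Adrb1 UMI. The genes most like Adrb1 were Rims3 (r 0.83), Ms4a6d (0.81), Kcna2 (0.79), the Kupffer marker Folr2 (0.78) and Ksr2 (0.78).

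**Figure D3:**
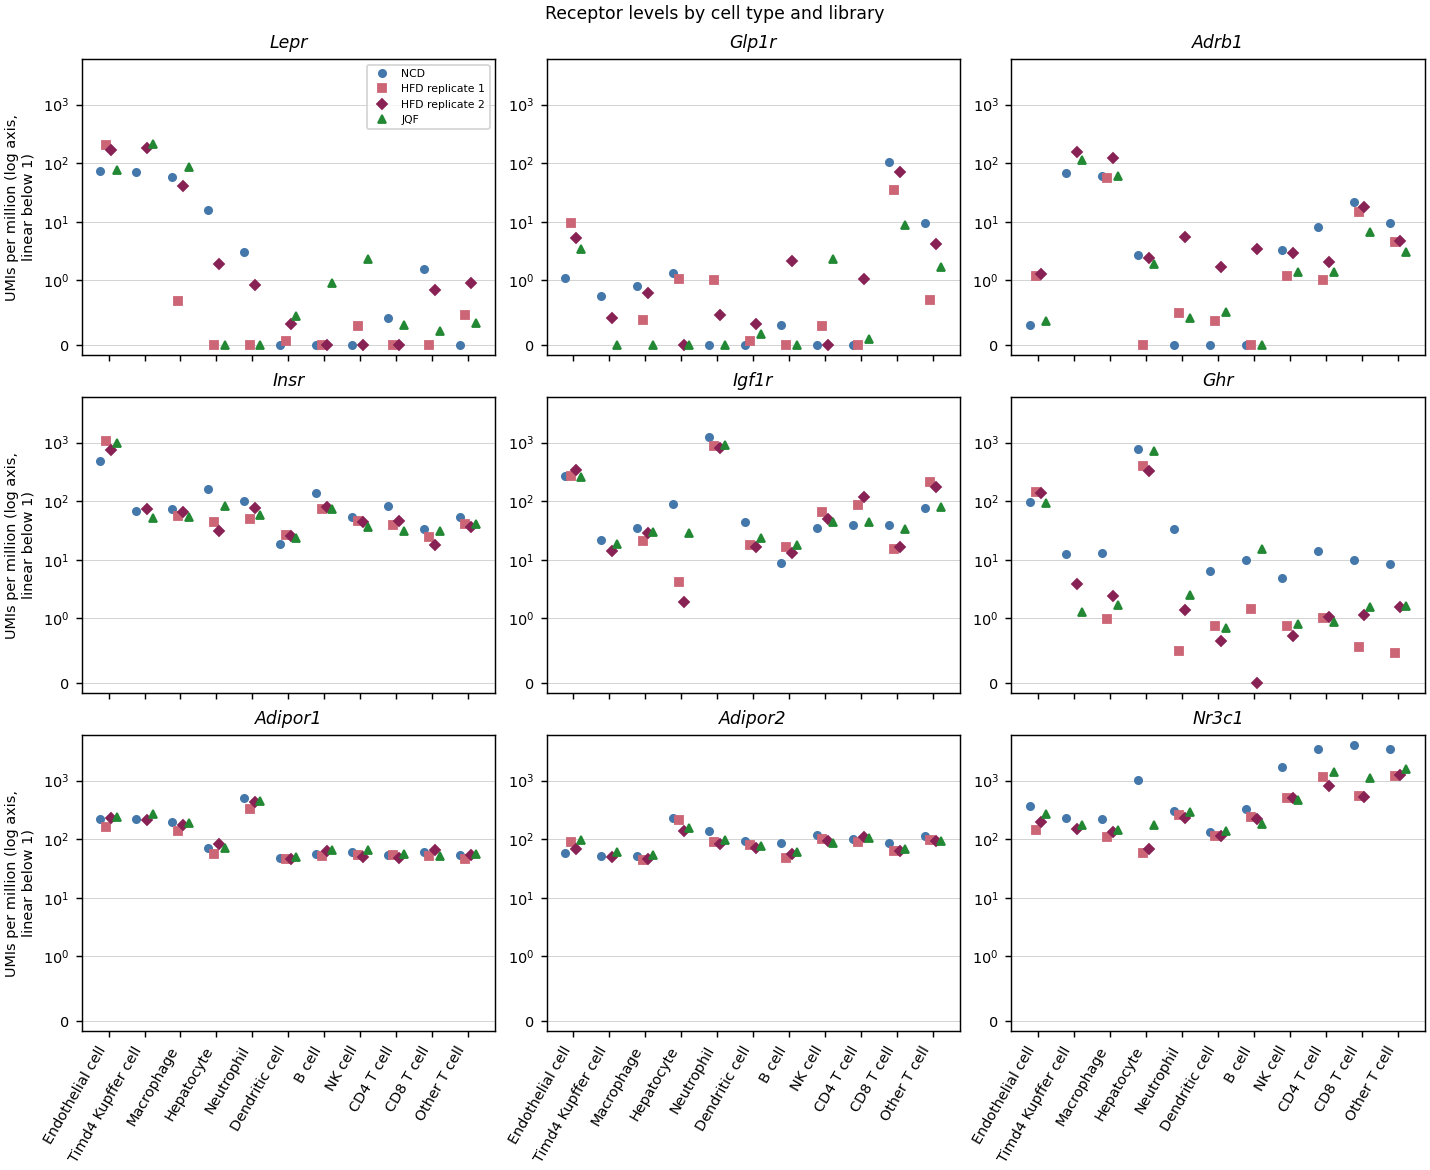
Level of each of the 9 receptor genes (CPM, y axis logarithmic above 1 and linear below it) in 11 cell types (x axis), with 1 point per library; the 8 Timd4 Kupffer cells of HFD replicate 1 are not drawn. Lepr, Glp1r and Adrb1 are near 0 in most types, Adipor1 and Adipor2 stay within narrow ranges, and Nr3c1 is highest in the T cells of NCD.

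The insulin receptor was foremost an endothelial transcript. Insr was at 494 CPM in the endothelial cells of NCD, 1084 and 749 CPM in HFD and 1006 CPM in JQF, and 81.8% to 89.8% of endothelial cells had a UMI. NCD was the lowest library, and JQF lay between the HFD libraries. B cells, next by mean level among the fitted types, had 137 CPM in NCD, 73.6 and 79.5 CPM in HFD and 73.4 CPM in JQF, and the ranges of both types were apart. Endothelial cells with Vwf were above those without it in every library, with 1110 against 456 CPM in NCD, 1319 against 845 and 1015 against 680 CPM in HFD, and 1586 against 853 CPM in JQF. The fitted log2 fold change of HFD against NCD was 0.72 (SE 0.27) in endothelial cells, -0.91 (SE 0.19) in B cells and -0.92 (SE 0.22) in CD4 T cells.

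Hepatocytes, the classical target of insulin, had Insr at 164 CPM in NCD, 44.6 and 31.1 CPM in HFD and 83.2 CPM in JQF. The hepatocytes of NCD had a median of 1923 UMIs, against 2640 to 6995 in the other libraries. Nr3c1 was at 1045 CPM and Igf1r at 90.2 CPM there, against at most 174 and 29.0 CPM in the hepatocytes of the other libraries. The nuclear RNA Malat1 was at 14070 CPM in the hepatocytes of NCD and 9107 CPM in those of JQF, against 1569 and 1890 CPM in HFD. Insr, Igf1r and Nr3c1 each span over 61.2 kb, and hepatocyte genes of such a span had a median log2 fold change of -1.45 for HFD against NCD. Free RNA of NCD held Insr at 218 CPM and Igf1r at 102 CPM, above its hepatocytes, and Nr3c1 at 413 CPM, below them. In the other libraries it held Insr at 34.7 and 59.8 CPM in HFD and 49.0 CPM in JQF. The part of these differences and of free RNA in the hepatocyte levels was not tested.

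Among the fitted types the IGF-1 receptor was highest in neutrophils. Igf1r was at 1269 CPM in NCD, 887 and 818 CPM in HFD and 902 CPM in JQF, and 78.6% to 89.7% of neutrophils had a UMI. Endothelial cells followed among the fitted types with 263 to 340 CPM, and the ranges of both types were apart. Of the types too small to be fitted, epithelial cells had 379 CPM in NCD, 237 and 80.3 CPM in HFD and 124 CPM in JQF. In neutrophils with Cxcr2, a receptor of mature neutrophils, Igf1r was at 1285 CPM in NCD, 893 and 881 CPM in HFD and 917 CPM in JQF, and without Cxcr2 at 1082, 874, 585 and 848 CPM.

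T cell subsets carried Igf1r in opposite orders. In CD8 T cells it was at 39.4 CPM in NCD, 15.4 and 16.6 CPM in HFD and 33.1 CPM in JQF. In CD4 T cells it was at 39.6 CPM in NCD, 87.7 and 118 CPM in HFD and 44.1 CPM in JQF. The HFD libraries were the low ones in CD8 T cells and the high ones in CD4 T cells, with fitted log2 fold changes of -1.29 (SE 0.27) and 1.38 (SE 0.27) against NCD and of 1.14 (SE 0.26) and -1.18 (SE 0.25) for JQF against HFD. The other T cells, at 76.5, 210, 174 and 78.8 CPM, were ordered like the CD4 T cells. Foxp3 T cells, too few to be fitted at 30 to 59 cells per library, had 60.2 CPM in NCD, 306 and 242 CPM in HFD and 196 CPM in JQF. Dendritic cells had 43.6 CPM in NCD and 16.6 to 23.4 CPM in the other libraries, with a fitted log2 fold change of -1.44 (SE 0.15) for HFD against NCD.

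The adiponectin receptors varied least. Adipor1 was at 502 CPM in the neutrophils of NCD, 334 and 433 CPM in HFD and 454 CPM in JQF, above the range of endothelial cells (161 to 241 CPM) and macrophages (138 to 198 CPM). Its fitted log2 fold changes stayed between -0.44 and 0.42 for HFD against NCD and between -0.26 and 0.47 for JQF against HFD. Adipor2 was at 228 CPM in the hepatocytes of NCD, 214 and 139 CPM in HFD and 153 CPM in JQF. Plasmacytoid dendritic cells, which were not fitted, had 363 CPM in NCD, 196 and 319 CPM in HFD and 357 CPM in JQF. In B cells Adipor2 was at 86.4 CPM in NCD, 48.4 and 55.5 CPM in HFD and 59.5 CPM in JQF, with a fitted log2 fold change of -0.80 (SE 0.21) for HFD against NCD.

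The growth hormone receptor marked hepatocytes and, at a lower level, stellate and endothelial cells. Ghr was at 781 CPM in the hepatocytes of NCD, 402 and 323 CPM in HFD and 726 CPM in JQF. Both HFD libraries were below NCD and JQF in level, but in JQF 3 cells held 60.5% of the UMIs. The share of hepatocytes with a Ghr UMI was 46.3% in NCD, 67.2% and 54.8% in the HFD libraries and 34.7% in JQF, and 46.0%, 37.0%, 37.2% and 17.4% at 2000 UMIs per cell. Among hepatocytes with at least 2000 UMIs the thinned shares of HFD were thus below NCD, as in level, and JQF was the lowest. Such cells were 139 of 283 hepatocytes in NCD, 54 of 61 and 196 of 272 in HFD and 46 of 72 in JQF. These shares therefore leave out the shallower cells, most of all in NCD. For HFD against NCD the log2 fold change was fitted at -0.66 (SE 0.57). Endothelial cells had 97.8 CPM in NCD, 146 and 137 CPM in HFD and 91.5 CPM in JQF, so there the HFD libraries were the higher ones. Stellate cells had 210 CPM in NCD (22 cells), 156 CPM in HFD replicate 2 (20 cells) and 359 CPM in JQF. Epithelial cells had 29.1 CPM in NCD, 71.0 and 30.8 CPM in HFD and 46.0 CPM in JQF.

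In lymphoid and myeloid cells Ghr was low, and free RNA held it too. In CD4 T cells it was at 13.9 CPM in NCD and 0.943 to 1.05 CPM in the other libraries, and in neutrophils at 33.0 CPM in NCD and 0.503 to 2.48 CPM in the others. Droplets of fewer than 100 UMIs held Ghr at 458 CPM in NCD, 40.7 and 32.9 CPM in HFD and 93.0 CPM in JQF, 5.23 times the level over all kept cells in NCD. Per 100 UMIs of the hepatocyte gene Alb, free RNA of NCD held 13.3 Ghr UMIs, its neutrophils 11.8 and its CD8 T cells 9.94. In the other libraries these ratios were 1.92 to 2.44 in free RNA and 1.11 to 2.74 in both cell types. Other types went above free RNA, with 10.3 in the dendritic cells of HFD replicate 1, 5.24 and 4.36 in the macrophages of HFD, and 11.1 and 15.2 in the B cells of HFD replicate 1 and JQF, on as few as 3 Ghr UMIs, whereas endothelial cells of those libraries held 54.05 to 370. The fitted log2 fold changes of -3.18 to -5.06 in B, CD4 T, CD8 T and dendritic cells and neutrophils stood beside a lower level of Ghr in the free RNA of HFD, whose part in them was not tested. In the B cells of JQF 3 cells held 97.9% of the 47 Ghr UMIs.

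The glucocorticoid receptor was highest in T cells, and highest of all in those of NCD. In CD8 T cells Nr3c1 was at 4089 CPM in NCD, 556 and 531 CPM in HFD and 1117 CPM in JQF. NCD was far above the rest and JQF above both HFD libraries, with fitted log2 fold changes of -2.90 (SE 0.24) for HFD against NCD and 1.14 (SE 0.24) for JQF against HFD. CD8 T cells with Pdcd1 were at 4893, 566, 543 and 1464 CPM and those without it at 3257, 547, 507 and 1018 CPM, in the order NCD, HFD replicate 1, HFD replicate 2 and JQF, so the order was the same in both.

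CD4 T cells had Nr3c1 at 3511 CPM in NCD, 1138 and 815 CPM in HFD and 1384 CPM in JQF, with a fitted log2 fold change of -1.85 (SE 0.29) for HFD against NCD. The other T cells had 3455, 1224, 1240 and 1565 CPM in the same order of libraries (-1.61, SE 0.21). NK cells had 1699 CPM in NCD and 470 to 515 CPM in the other libraries (-1.93, SE 0.14), where JQF did not lie above HFD. Endothelial cells had 363 CPM in NCD, 146 and 200 CPM in HFD and 270 CPM in JQF (-1.20, SE 0.24). In dendritic cells and neutrophils the libraries lay closer together, at 112 to 139 and 231 to 301 CPM. For HFD against NCD the fit gave a log2 fold change of -3.58 (SE 0.56) in hepatocytes, -0.77 (SE 0.20) in macrophages and -0.58 (SE 0.19) in B cells. Differences between types were not tested.

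**Figure D4:**
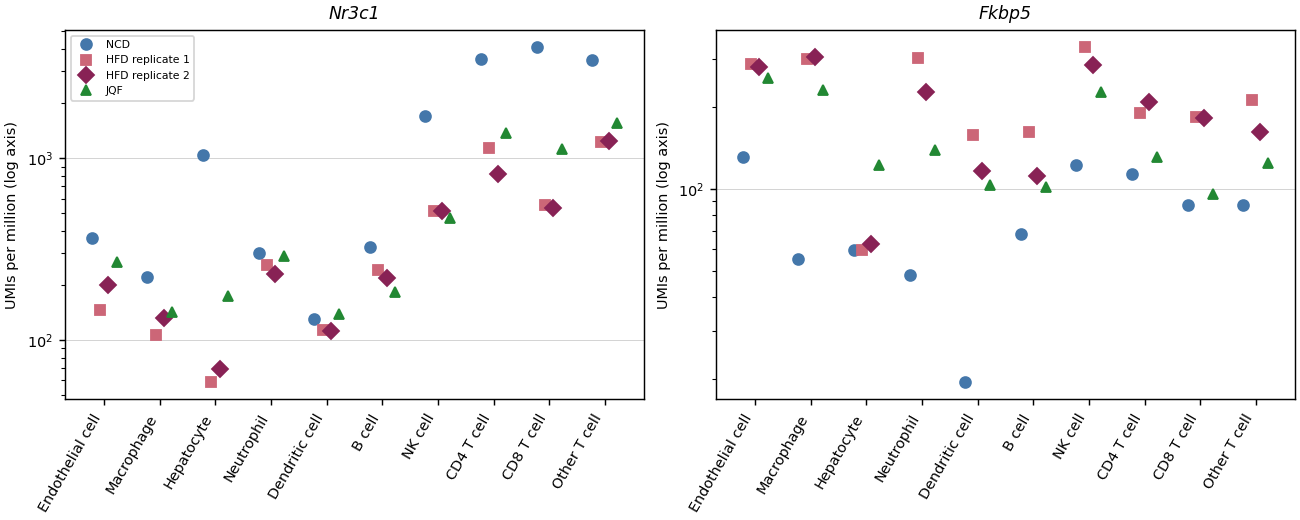
Level of Nr3c1 (left) and of Fkbp5, a gene induced through its product (right), in CPM (log y axes) in 10 cell types (x axis), with 1 point per library. Nr3c1 of NCD lies above the other libraries in T and NK cells, up to 4089 CPM, whereas Fkbp5 of NCD lies below the other libraries in T cells, dendritic cells and macrophages and at the level of HFD in hepatocytes (59.4, 59.5 and 62.8 CPM).

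The fits across all genes included the receptors. After the filter on low counts Lepr was left in 4 of 10 types, Glp1r in 3, Adrb1 in 5, Ghr in 9 and the others in all 10, which made 71 pairs of receptor and type. By edgeR's quasi-likelihood test with Benjamini-Hochberg adjustment at 0.05, 23 of the 71 passed for HFD against NCD, 5 higher and 18 lower. By type these were 3 of 6 fitted receptors in B cells (13.8% of all genes passed there), 4 of 7 in CD4 T cells (16.8%), 3 of 9 in CD8 T cells (8.55%), 2 of 7 in dendritic cells (22.0%) and 4 of 8 in endothelial cells (15.6%). They were 3 of 7 in hepatocytes (35.6%), 2 of 8 in other T cells (14.5%), 1 of 6 in neutrophils (4.01%) and 1 of 5 in NK cells (4.41%). In macrophages (8.59%) the 8 fitted receptors did not pass. For JQF against HFD only 2 of 71 passed, both lower: Lepr in endothelial cells, where 2.02% of all genes passed, and Glp1r in CD8 T cells, where 1.3% did. In the other types the share of all genes was 1.16% in CD4 T cells, 0.678% in hepatocytes, 0.301% in dendritic cells, 0.0907% in other T cells, 0.0442% in B cells and 0.00718% in macrophages. It was 0.0% in NK cells and neutrophils, where edgeR gave 1158 and 478 genes at an unadjusted p under 0.05 and DESeq2 called 49 and 4. Since the receptors were chosen on these values, nothing is read from the counts of receptors.

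**Figure D5:**
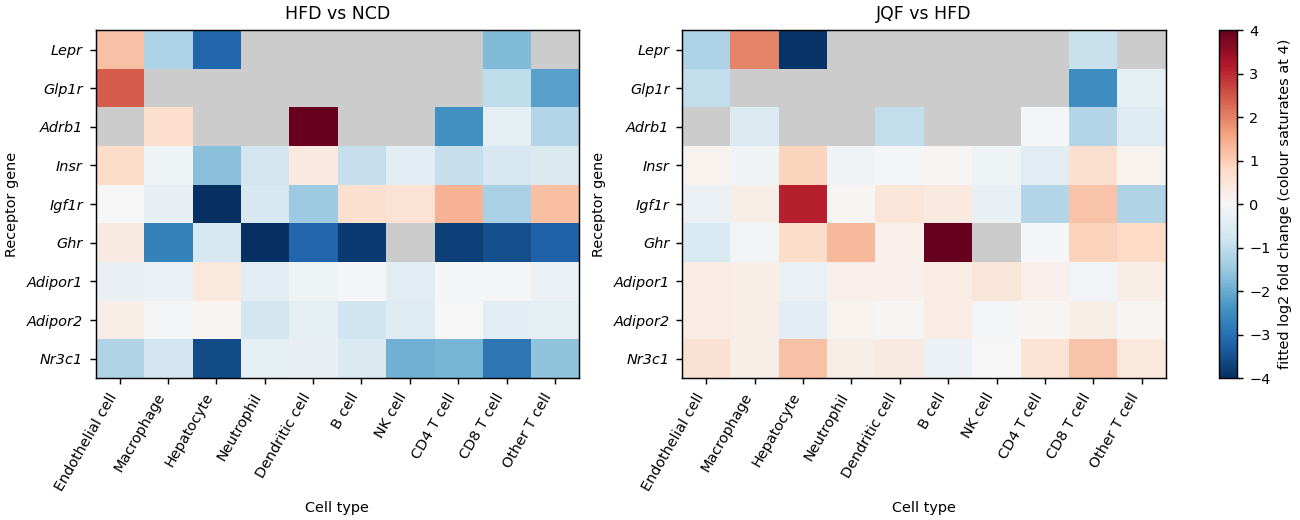
Fitted log2 fold changes of the 9 receptor genes (rows) in 10 cell types (columns) for HFD against NCD (left) and JQF against HFD (right), with red for higher and blue for lower in the group named first, colour saturating at 4, and grey for genes under the filter. Nr3c1 and Ghr are blue in most types on the left, Igf1r is red in CD4 and other T cells and blue in CD8 T cells, and Glp1r in CD8 T cells (-2.48) and Lepr in endothelial cells (-1.23) are blue on the right.

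The genes that act around the receptors were tested as 8 lists of 114 genes, and 220 of 897 tested pairs of gene and type, or 24.5%, passed for HFD against NCD, 58 higher and 162 lower. Over all genes 17625 of 121863 pairs, or 14.5%, passed. These were genes of any length, and the part of gene length in the shares and list medians was not tested. More calls over all genes were lower than higher in every fitted type but macrophages (705 higher, 492 lower). In NK cells 59 were higher and 403 lower, beside 2 and 14 in the lists. In CD4 T cells 848 were higher and 1066 lower, beside 9 and 25 in the lists. The part of this general split in the directions of the lists was not tested. By type the share of pairs was above that of all genes in CD4 T cells (34 of 83, 41.0% against 16.8%), dendritic cells (30 of 92, 32.6% against 22.0%), endothelial cells (27 of 95, 28.4% against 15.6%), B cells (24 of 85, 28.2% against 13.8%), CD8 T cells (26 of 93, 28.0% against 8.55%), other T cells (24 of 88, 27.3% against 14.5%) and NK cells (16 of 80, 20.0% against 4.41%). It was near or below it in macrophages (9 of 97, 9.28% against 8.59%), hepatocytes (28 of 100, 28.0% against 35.6%) and neutrophils (2 of 84, 2.38% against 4.01%). The lists were drawn up with earlier results of these data known. Of the calls named below for HFD against NCD, Acer3 and Stk11 were made in 6 of 8 alternative fits (adjusted p up to 0.0914 and 0.622 by edgeR or DESeq2), Cish in 5 of 6 (up to 0.516), and Appl1 (up to 0.610), Ptpn6, Foxo1 and Stat3 in 7 of 8.

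In the leptin list 22 of 70 pairs passed, 2 higher and 20 lower, with a median log2 fold change of -0.35 over the list against 0.07 over all genes. Lepr itself was left by the filter in only 4 of 10 types and was at 0 to 1.58 CPM in CD8 T cells. Whether these calls have to do with leptin was not tested. Stat3, the transcription factor that the leptin receptor activates, was lower in 9 of 10 types. In CD8 T cells it fell from 1442 CPM in NCD to 395 and 620 CPM in HFD, with 393 CPM in JQF (HFD against NCD -1.49 on the log2 scale, SE 0.30, edgeR adjusted p = 0.0149). The kinase Jak2 was lower in 6 types, including CD4 T cells (-1.21, SE 0.26, adjusted p = 0.0133), and the feedback gene Socs3 in 4, including endothelial cells (-0.76, SE 0.24, adjusted p = 0.012), where it passed in 3 of 8 alternative fits. Leprot, whose product controls how much leptin receptor reaches the surface, was at 92.7, 92.4, 106 and 113 CPM in endothelial cells in the order NCD, HFD replicate 1, HFD replicate 2 and JQF, a range in which the Lepr pattern was not seen, and it was higher only in dendritic cells (0.64, SE 0.15, adjusted p = 0.0292), in 5 of 8 alternative fits.

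Around the insulin and IGF-1 receptors 39 of 168 pairs passed, 3 higher and 36 lower, with a median of -0.52. The docking protein gene Irs2 was lower in 7 types, the transcription factor genes Foxo1 and Foxo3 in 6 and 5, and the regulatory kinase subunit gene Pik3r1 in 5. Akt1, the kinase further down, was higher in 3 types. In dendritic cells Pik3r1 fell from 899 CPM in NCD to 357 and 432 CPM in HFD (-1.29, SE 0.20, adjusted p = 0.0104). In B cells Foxo1 fell from 608 to 324 and 350 CPM (-0.92, SE 0.19, adjusted p = 0.0291).

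Of the adiponectin list 16 of 104 pairs passed, all lower, with a median of -0.34, a share near the 14.5% of all genes. Acer3, which codes for a ceramidase, was lower in 6 types, and Cdh13, whose product T-cadherin binds adiponectin, in 4. In dendritic cells Acer3 fell from 433 CPM in NCD to 179 and 219 CPM in HFD (-1.23, SE 0.20, adjusted p = 0.0118) and the adaptor gene Appl1 from 124 to 59.5 and 67.3 CPM (-1.07, SE 0.16, adjusted p = 0.00972). In CD4 T cells Stk11, the kinase that activates AMP-activated kinase, fell from 72.0 to 44.7 and 39.2 CPM (-0.78, SE 0.21, adjusted p = 0.029). Of the growth hormone list 14 of 53 pairs passed, 6 higher and 8 lower, with a median of -0.02. Stat5b was lower in other T cells (-0.84, SE 0.15, adjusted p = 0.0151), the feedback gene Cish in NK cells (-1.50, SE 0.19, adjusted p = 0.0338) and the phosphatase gene Ptpn6 higher in B cells (1.10, SE 0.20, adjusted p = 0.0206).

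In the adrenergic and cyclic AMP list 46 of 201 pairs passed, 14 higher and 32 lower, with a median of -0.01. The phosphodiesterase genes Pde3b, Pde4b and Pde4d, whose products break cyclic AMP down, were lower in 8, 6 and 5 types, and Crem, a transcription factor gene that cyclic AMP induces, in 7. In other T cells Crem fell from 639 CPM in NCD to 136 and 120 CPM in HFD (-2.44, SE 0.16, adjusted p = 0.000851) and Pde3b from 1163 to 583 and 614 CPM (-1.08, SE 0.18, adjusted p = 0.0124). In dendritic cells Pde4b fell from 1022 to 235 and 381 CPM (-1.83, SE 0.31, adjusted p = 0.0122). The cyclase gene Adcy7 was higher in 6 types.

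Around the glucocorticoid receptor 50 of 150 pairs passed, 25 higher and 25 lower, with a median of -0.25. The list was split by gene. Fkbp5 was higher in 7 of 10 types and Ddit4, another induced gene, in 7, and these genes were named after their values had been seen. In CD8 T cells, where Nr3c1 was lowest in HFD, Fkbp5 was at 87.0 CPM in NCD, 184 and 181 CPM in HFD and 95.8 CPM in JQF (HFD against NCD 1.08, SE 0.23, adjusted p = 0.0205). In macrophages it was at 55.0 CPM in NCD, 299 and 305 CPM in HFD and 230 CPM in JQF (2.58, SE 0.18, adjusted p = 0.0395). Tsc22d3, which codes for the induced protein GILZ, passed in no type, with log2 fold changes of -0.39 to 0.81, with 0 calls by DESeq2 and an unadjusted p under 0.05 by edgeR in 1 type.

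The lower genes of the glucocorticoid list included Nr3c2, the mineralocorticoid receptor gene, in 7 types, Zbtb16 in 4 with 2 higher, and Dusp1 in 3, for instance in NK cells, where it fell from 1804 CPM in NCD to 516 and 530 CPM in HFD (-1.99, SE 0.14, adjusted p = 0.0159). The chaperone gene Hsp90aa1 was lower in B cells (-0.93, SE 0.18, adjusted p = 0.0244), and Hsp90ab1 was higher in endothelial cells (0.79, SE 0.27, adjusted p = 0.0299), the latter in 3 of 8 alternative fits. Of the other hormone receptors 32 of 128 pairs passed, 7 higher and 25 lower, with a median of -0.22. Calcrl, part of the receptors for calcitonin gene-related peptide and adrenomedullin, was lower in 6 types, including B cells with 177 CPM in NCD and 46.9 and 69.6 CPM in HFD (-1.67, SE 0.26, adjusted p = 0.0157). The orphan nuclear receptor gene Rora was lower in 6 types, including other T cells (-1.37, SE 0.18, adjusted p = 0.00517). Nr1h3, which codes for the oxysterol receptor LXR alpha, was higher in 5, including hepatocytes with 20.7 CPM in NCD and 96.6 and 118 CPM in HFD (2.82, SE 0.59, adjusted p = 0.00369).

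With JQF only 12 of 897 pairs passed against HFD, or 1.34%, 8 higher and 4 lower, while 0.596% of all pairs did. By plain library totals the split of list pairs was 13 higher and 3 lower. Over all genes the calls were 127 higher and 54 lower in CD8 T cells, and 95 higher and 185 lower in endothelial cells. Irs2 accounted for 3 of the 12 pairs and was higher with JQF in CD8 T, CD4 T and dendritic cells. In CD8 T cells it was at 43.5 CPM in NCD, 6.63 and 5.27 CPM in HFD and 35.1 CPM in JQF (2.66, SE 0.27, adjusted p = 0.00194). In CD4 T cells it rose from 8.67 and 4.70 CPM in HFD to 22.1 CPM (1.71, SE 0.34, adjusted p = 0.0413), and in dendritic cells from 16.9 and 19.7 to 52.8 CPM (1.59, SE 0.16, adjusted p = 0.0238), in 5 and 7 of 8 alternative fits (adjusted p up to 0.9998 and 0.362). Both HFD libraries lay below NCD and below JQF in each of these types.

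Zbtb16, which codes for the transcription factor PLZF, was higher with JQF in CD8 T cells, at 4.83 and 6.22 CPM in HFD and 68.2 CPM in JQF (3.71, SE 0.27, adjusted p = 0.000573), and in CD4 T cells, at 105 and 84.2 CPM in HFD and 370 CPM in JQF (2.00, SE 0.21, adjusted p = 0.00238). In CD8 T cells Rora (1.30, SE 0.24, adjusted p = 0.0329) and the growth hormone feedback gene Socs2 (1.81, SE 0.35, adjusted p = 0.0423) were higher as well, in 6 and 5 of 8 alternative fits, with adjusted p up to 0.057 and 0.371. In endothelial cells Pparg was lower, at 57.6 and 40.0 CPM in HFD and 12.96 CPM in JQF (-1.84, SE 0.34, adjusted p = 1.65e-05), as were Pde4d (-1.07, SE 0.26, adjusted p = 0.0049) and Pde4b (-0.90, SE 0.26, adjusted p = 0.0311), and Hsp90aa1 was higher (0.99, SE 0.25, adjusted p = 0.00678). These 4 endothelial calls were made in 2 or 3 of 8 alternative fits, with adjusted p up to 0.911. Endothelial cells of HFD replicate 1 numbered 107.

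The last of the 12 was Gcg, the gene of glucagon and GLP-1, in CD8 T cells. It had 0 UMIs in NCD, 66 and 79 in the HFD libraries and 1 in JQF. In HFD replicate 1 the 66 UMIs lay in 7 cells, and 1 of them held 59, while in HFD replicate 2 the 79 UMIs lay in 18 cells. Cells with Pdcd1 held all 66 UMIs of HFD replicate 1 and 68 of the 79 of replicate 2. Gcg also passed for HFD against NCD, where it was the only call among 23 pairs of the incretin and glucagon list. No fold is given, since NCD held 0 UMIs. It passed in 7 of 8 alternative fits for HFD against NCD and in 6 of 8 for JQF against HFD.

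The order of the levels over cell types was clear for some receptors and not for others. Over the 4 libraries endothelial cells were above B cells for Insr without overlap of their ranges, as were neutrophils above endothelial cells for Igf1r and Adipor1, hepatocytes above endothelial cells for Ghr and macrophages above CD8 T cells for Adrb1. For Lepr, Glp1r, Adipor2 and Nr3c1 no neighbours in the order had ranges apart, so ranges over libraries did not resolve their leading types. For Lepr the macrophages of JQF (87.7 CPM) lay above the endothelial cells of NCD (72.9 CPM) and of JQF itself (77.9 CPM). For Glp1r the CD8 T cells of JQF (8.87 CPM) lay below the endothelial cells of HFD replicate 1 (9.60 CPM). Within each library, however, CD8 T cells were above endothelial cells taken as a whole for Glp1r, with counting intervals apart. The levels were 107 against 1.11 CPM in NCD, 35.1 against 9.60 and 69.8 against 5.33 CPM in HFD, and 8.87 against 3.38 CPM in JQF. This did not hold for the endothelial cells with Vwf in JQF, which were at 16.3 CPM.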

How the data were processed

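The libraries of dissociated mouse liver (NCD 1, HFD 2, JQF 1) were analysed. The authors deposited UMI counts per gene and cell barcode, made with Cell Ranger on mm10 (6.0.1 in their methods, while the file headers name 7.0.0 or no full version), and whether intron reads were counted, and alike in all libraries, is not given in the sources used here. Unlike counting could change every fold between libraries, and more so for long genes. From these counts, cells under 500 genes or over 20% mitochondrial UMIs were left out and the rest assigned to types by marker genes, with at least 3 markers detected. The scoring of the markers was chosen after their distributions had been seen. Doublets were left in and removed as an alternative (Scrublet).

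Counts were summed per library and type, for types with at least 50 cells in every library, and tested with edgeR 4.0.16 (quasi-likelihood, TMM scaling, group as the only term, Benjamini-Hochberg adjustment within a type at 0.05) in R 4.3.3. The spread rests on the HFD pair, with 1 residual degree of freedom, and the lone NCD and JQF libraries are assumed to vary like it. DESeq2 1.42.0 was an alternative. The scripts were tested on simulated data. Counting intervals are exact 95% Poisson intervals and cover counting error only.

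The receptors and the lists were chosen with earlier results of these data known. Named genes were the receptors, per list and contrast up to 3 genes past the threshold with the highest mean CPM, and the 5 genes most like Lepr, Glp1r and Adrb1 among 11364 genes. Every other gene with values was chosen after its values had been seen. Results for some genes are not reported here, though the counts over lists include them.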

Additional observations from a re-analysis of the deposited data

Results flagged for a closer look

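For 6 receptors both HFD libraries lay above NCD in 1 cell type and below it in another, with counting intervals apart, and the difference between the types was not tested. The log2 ratio of the HFD mean to NCD was 1.35 for Lepr in endothelial cells and -4.09 in hepatocytes. For Glp1r it was 2.75 in endothelial cells and -1.03 in CD8 T cells. For Insr it was 0.89 in endothelial cells and -2.12 in hepatocytes. For Igf1r it was 1.38 in CD4 T cells and -4.88 in hepatocytes. For Adipor2 it was 0.47 in endothelial cells and -0.73 in B cells. For Ghr it was 0.54 in endothelial cells and -5.13 in neutrophils. The hepatocytes of NCD had a median of 1923 UMIs, and Ghr in free RNA was at 458 CPM in NCD and 32.9 to 40.7 CPM in HFD. Free RNA held Insr at 218 CPM in NCD and 34.7 and 59.8 CPM in HFD. For Igf1r it held 102 CPM in NCD and 43.5 and 40.7 CPM in HFD, and for Lepr 28.6, 1.43 and 22.3 CPM. Hepatocyte genes over 61.2 kb in span had a median log2 fold change of -1.45. The part of these values in the ratios was not tested.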

How the results depend on the processing

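No paired analysis was made, because the mice were divided into groups at random and the replicate numbers of the labels do not name pairs. For the 220 pairs of list gene and type past the threshold for HFD against NCD, DESeq2 gave 131 and thinning to 2000 UMIs per cell gave 131 (192 with all UMIs in the same 9 types). The 12 for JQF against HFD became 81 without a filter on low counts, 29 without predicted doublets, 20 at 2000 UMIs and 8 by DESeq2. Leaving out cells with markers of a second type, chosen for these counts after seeing the data, gave 172 and 8 in 8 types, against 176 and 12 with all cells in those types, since hepatocytes and NK cells were then too few. The cause of the other changes was not tested. For Nr3c1 in CD8 T cells the log2 ratio of HFD to NCD went from -2.91 to -2.74 without cells that held markers of a second type, and that of JQF to HFD from 1.04 to 0.84, and to 1.15 at 2000 UMIs. Lepr in Timd4 Kupffer cells went from 71.0 CPM in NCD to 115 (2000 UMIs) and 90.5 (second-type cells left out), from 182 in HFD replicate 2 to 198 (no doublets), 200.5 (Leiden clusters), 202 (2000 UMIs) and 215 (second-type), and from 211 in JQF to 233 (no doublets), 237.5 (Leiden clusters) and 257 (2000 UMIs). The ratio of shares of endothelial cells with Lepr went from 1.06 to 2.00 for HFD to NCD and from 0.681 to 0.4997 for JQF to HFD at 2000 UMIs, and that of macrophages with Adrb1 for HFD to NCD from 0.878 to 1.57. With either HFD library left out, which allows no test, the log2 ratios of HFD to NCD and of JQF to HFD ran from 1.19 to 1.501 and -1.40 to -1.09 for Lepr in endothelial cells, -1.61 to -0.62 and -2.98 to -1.98 for Glp1r in CD8 T cells, -0.12 to 1.03 and -0.99 to 0.16 for Adrb1 in macrophages, -2.94 to -2.88 and 1.01 to 1.07 for Nr3c1 in CD8 T cells, -0.63 to -0.52 and 0.02 to 0.14 for Igf1r in neutrophils, and 0.60 to 1.13 and -0.11 to 0.42 for Insr in endothelial cells. Adrb1 thus turned direction without HFD replicate 2. By plain library totals the median log2 fold change of all genes for HFD against NCD moved from -0.09 to -0.55 in hepatocytes and from 0.13 to 0.34 in NK cells.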
